A study of Mus musculus with 7 samples.

Results

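The immunoproteasome and MHC class I genes described here are 10 of the 43629 genes in the count table, taken by name: the inducible proteasome subunits Psmb8, Psmb9 and Psmb10, the peptide transporter and loading genes Tap1, Tap2 and Tapbp, the light chain B2m, the heavy chains H2-K1 and H2-D1, and the regulator Nlrc5. Each name matched a single Ensembl gene, and all 10 passed the filter on low counts. Poly(A) RNA was sequenced from 7 libraries of mouse E14 embryonic stem (ES) cells of 129/Ola background in 3 groups. Ago2-knockout cells after 5 days of XEN (extra-embryonic endoderm) differentiation (KO XEN) gave 2 libraries, from the lines C4 and 5-3. Wild-type E14 cells after the same differentiation (WT XEN) gave 2, A and B. The Ago2-knockout lines kept undifferentiated (KO ESC) gave 3, C4, 5-3_1 and 5-3_2. Differentiating cells were kept in RPMI 1640 with serum, activin A at 10 ng/mL and all-trans retinoic acid at 0.1 µM, and ES cells in serum with LIF on gelatine. Wild-type ES cells are not used here, so that genotype and differentiation cannot be told apart between WT XEN and KO ESC.

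Cells cut their own proteins in the proteasome and show the peptides at the surface on MHC class I. Under interferon, the catalytic subunits Psmb5, Psmb6 and Psmb7 are replaced in newly made proteasomes by Psmb8, Psmb9 and Psmb10. Tap1 and Tap2 pump peptides into the endoplasmic reticulum, where tapasin (Tapbp) helps load them onto a heavy chain paired with B2m. Nlrc5 is a coactivator that acts at class I promoters through the RFX complex, and mouse ES cells are known for low class I at their surface.

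Total counts ran from 13941826 (KO XEN C4) to 33389566 (KO XEN 5-3) in KO XEN, were 36427340 and 38595537 in WT XEN, and ran from 39998808 to 48650113 in KO ESC. The library of least depth was thus in KO XEN. The transcript of the targeted gene, Ago2, stood at 122 CPM in the KO XEN library labelled C4 and 9.94 in 5-3, against 394 and 432 in WT XEN, and C4 also held more than 5-3 in KO ESC (94.4 against 9.37 and 9.65 CPM). Against the XEN label were set 10 endoderm markers, of which KO XEN had 0 called higher and 9 lower against WT XEN, and 6 higher and 1 lower (Lrp2) against KO ESC. Over all genes tested, KO XEN had 22.3% called higher and 23.9% lower against WT XEN, and 34.8% and 34.3% against KO ESC. Gata6 was the one that missed the threshold between the XEN groups, at 96.6 and 169 CPM in KO XEN, against 225 and 328 in WT XEN and between 0.240 and 2.98 in KO ESC. Gata4 stood at 43.4 and 83.0 CPM in KO XEN, against 520 and 644 in WT XEN and between 0.768 and 6.44 in KO ESC. Sox7, at 1.52 and 3.11 CPM in KO XEN, against 111 and 157 in WT XEN and between 1.10 and 2.58 in KO ESC, was not called between KO XEN and KO ESC. The sum of the 10 was 595 and 1003 CPM in KO XEN, against 17027 and 24005 in WT XEN and between 313 and 332 in KO ESC, and in ES cells it was mostly Lama1 and Lrp2. Of 10 fibroblast markers, 6 were called higher in KO XEN than in WT XEN and 2 lower (Col1a2 and Lum, the one at 28.5 and 36.0 against 212 and 57.9 CPM and the other at 0 in KO XEN), while Dcn and Thy1 missed the threshold. Their sum was 10247 and 12630 CPM in KO XEN, against 1813 and 793 in WT XEN and between 30.5 and 31.7 in KO ESC, most of it Acta2 and Tagln in KO XEN. The mitochondrial share of counts was 0.781% and 0.979% in KO XEN, against 1.94% and 2.64% in WT XEN and between 2.79% and 3.26% in KO ESC. For 10 ES-cell markers, KO XEN had 0 called higher and 8 lower against WT XEN, while Sox2 and Tdgf1 missed the threshold. These markers summed to 67.4 and 77.3 CPM in KO XEN, against 833 and 913 in WT XEN and between 5710 and 6058 in KO ESC. Dppa5a alone stood at 8.78 and 23.9 CPM in KO XEN, against 489 and 577 in WT XEN. The XEN groups thus differed in these values as well as in genotype, and the part of this in the results below was not tested. In such bulk RNA, more cells of a type and more RNA per cell cannot be told apart. Of leukocytes, which carry immunoproteasomes, 12 markers summed to 73.9 and 45.2 CPM in KO XEN, against 55.6 and 39.2 in WT XEN and between 87.8 and 148 in KO ESC. Of the 8 tested, Laptm5 was called higher in KO XEN than in WT XEN (55.5 and 28.1 against 12.9 and 9.10 CPM, adjusted p = 0.00519) and Csf1r and Cd68 lower, with Csf1r at 1.67 and 5.29 against 13.6 and 10.1 CPM. Ptprc, the pan-leukocyte antigen CD45, and Adgre1, of macrophages, had 0 counts in both KO XEN libraries and at most 2 in any library.

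The promoter windows of 5 of the genes are shown because the class I genes and the processing genes differed in their pattern over the libraries. Each runs from 250 bases before to 50 bases after the transcription start, 5′ to 3′ on the strand of the gene, from RefSeq on GRCm38.p6, which is mm10. They lie at chr17:34000298-34000597 (H2-K1, minus strand), chr17:35262844-35263143 (H2-D1, plus), chr2:122147437-122147736 (B2m, plus), chr17:34187306-34187605 (Tap1, plus) and chr17:34197945-34198244 (Psmb8, plus). Capitals mark matches to any of 6 motifs known from class I and interferon-responsive promoters, searched on both strands: GGGATTCCC, of the NF-kappaB type, GAAANNGAA and GAANNGAAA, both of the interferon-stimulated response element type and not nested in each other, TTCNNNGAA, of the STAT-bound GAS type, TGACGC, a CRE-like site of the X2 type, and CCAAT, the NF-Y box. The motifs were chosen with these promoters known.
H2-K1: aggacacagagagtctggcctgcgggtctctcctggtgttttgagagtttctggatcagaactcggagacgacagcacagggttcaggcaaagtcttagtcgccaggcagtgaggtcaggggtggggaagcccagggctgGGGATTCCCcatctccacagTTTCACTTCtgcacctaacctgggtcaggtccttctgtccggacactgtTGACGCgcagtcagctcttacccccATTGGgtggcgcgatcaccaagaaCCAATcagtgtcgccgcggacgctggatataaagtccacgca
H2-D1: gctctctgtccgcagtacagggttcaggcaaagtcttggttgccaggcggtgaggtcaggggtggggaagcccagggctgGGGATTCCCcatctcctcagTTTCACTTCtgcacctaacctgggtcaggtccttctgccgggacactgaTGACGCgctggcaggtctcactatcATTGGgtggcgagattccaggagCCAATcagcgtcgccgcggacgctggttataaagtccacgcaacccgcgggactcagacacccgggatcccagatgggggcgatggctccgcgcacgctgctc
B2m: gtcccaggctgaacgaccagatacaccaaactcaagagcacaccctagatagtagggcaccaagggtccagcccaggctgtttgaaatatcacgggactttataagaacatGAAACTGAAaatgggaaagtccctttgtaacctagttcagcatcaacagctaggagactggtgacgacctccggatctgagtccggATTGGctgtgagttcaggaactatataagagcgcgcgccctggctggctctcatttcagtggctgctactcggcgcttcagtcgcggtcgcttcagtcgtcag
Tap1: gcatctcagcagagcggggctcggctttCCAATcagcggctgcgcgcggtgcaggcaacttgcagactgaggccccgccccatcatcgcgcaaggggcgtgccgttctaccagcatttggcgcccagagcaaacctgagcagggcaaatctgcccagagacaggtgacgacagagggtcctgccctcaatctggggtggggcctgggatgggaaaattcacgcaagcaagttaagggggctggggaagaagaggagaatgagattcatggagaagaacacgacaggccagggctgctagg
Psmb8: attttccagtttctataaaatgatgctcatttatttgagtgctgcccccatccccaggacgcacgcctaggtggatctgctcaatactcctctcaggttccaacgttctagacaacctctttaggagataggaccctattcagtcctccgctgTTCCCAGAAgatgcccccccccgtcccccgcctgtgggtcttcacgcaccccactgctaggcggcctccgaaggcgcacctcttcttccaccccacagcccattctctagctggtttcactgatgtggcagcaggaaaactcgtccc

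The heavy chains shared a promoter layout. In H2-K1 the NF-kappaB-type match began at -110 from the start, the GAANNGAAA match at -90, TGACGC at -41 and the CCAAT boxes at -16 and 8. In H2-D1 the same elements stood in the same order at -170, -150, -101, -76 and -53, and the longest run of bases common to both windows was 47. RefSeq gave 2 windows for H2-K1, and the one nearest the annotated gene start was used. The distances, and the shift between the genes, depend on the starts used. GGGATTCCC was in 0.353% of all 32851 windows in the table, GAANNGAAA in 7.52%, TGACGC in 7.4% and CCAAT in 37.4%. All 4 occurred together in windows of 2 genes, H2-K1 and H2-D1, and GGGATTCCC was in windows of 112 genes, including H2-Q6, H2-Q7 and Irf1. As the motifs were chosen with these promoters known, their presence together in H2-K1 and H2-D1 is a description and no test. B2m had the GAAANNGAA form at -139, held by 8.56% of windows, and a CCAAT box at -53. Psmb8 had a GAS-type match at -97, held by 8.3%. Psmb9 and Tap1 are transcribed away from each other from starts 226 bases apart, so their windows share 275 bases, and the CCAAT box in each is the same bases read from either strand. Tapbp had CCAAT matches at -248 and -165, and Psmb10 had none of the 6. The windows of H2-D1, Psmb8, Psmb9 and Tapbp lie wholly inside the gene positions given below. Matches in these windows thus stand upstream of the RefSeq start used, not of the annotated gene start. No window of Tap2 or Nlrc5 is shown. A match describes letters and does not show a bound site. Likewise, a window without a match to these fixed strings may still hold an element of the same type. No link between motifs and levels was tested.

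**Figure D1:**
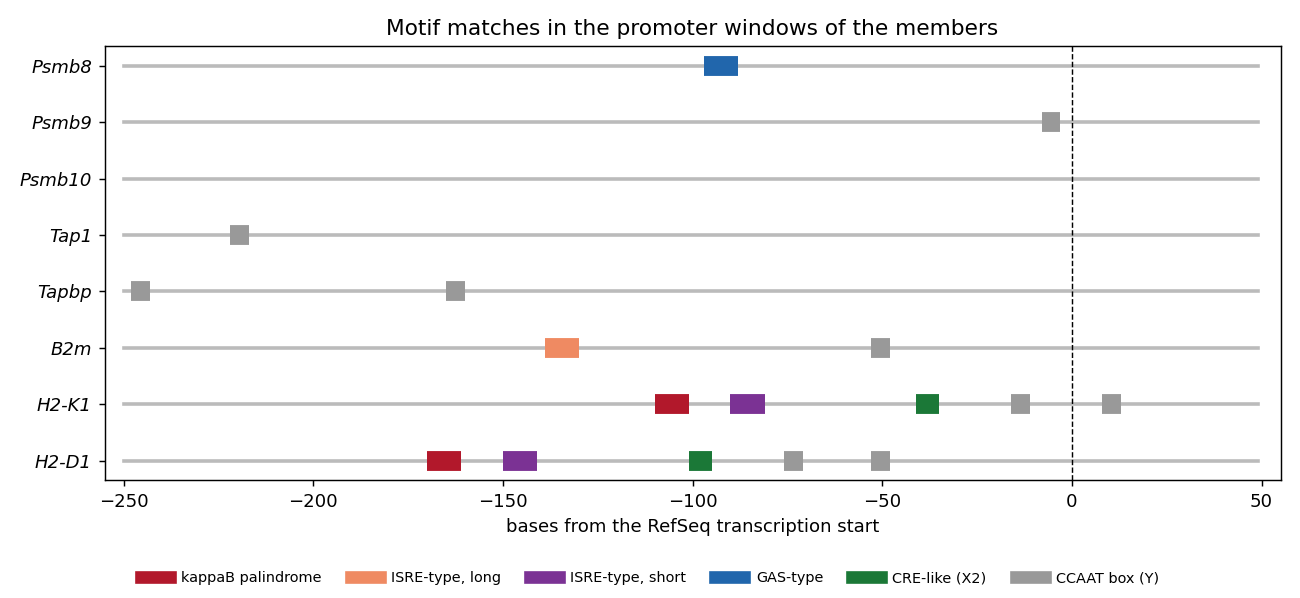
Motif matches (coloured blocks) in the promoter windows of 8 of the genes, by distance in bases from the RefSeq transcription start (dashed line). H2-K1 and H2-D1 carry the same elements in the same order, shifted against the RefSeq starts used, and Psmb10 carries no match to the motifs searched.

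In KO XEN against WT XEN, which compares the genotypes after the same treatment, 7 of the 10 genes were called higher and 0 lower by an edgeR quasi-likelihood test at an adjusted p of 0.05, and 3 missed that threshold. Over all 18426 genes tested, 22.3% were called higher and 23.9% lower, 46.2% in all. The 7 were the inducible proteasome subunits, Tap1, Tap2, Tapbp and Nlrc5, and the 3 were B2m, H2-K1 and H2-D1. The median log2 fold change of the 10 genes was 3.35, beside 0 over all genes. Libraries of the groups did not overlap for 9 genes, 8 of them higher and H2-D1 lower in KO XEN, where 38.2% and 38.3% of all genes did not overlap upward and downward. Levels are CPM, read counts scaled to TMM-adjusted library sizes, and are compared between groups, not between genes. They are given in the order C4 and 5-3 in KO XEN, A and B in WT XEN, and C4, 5-3_1 and 5-3_2 in KO ESC.

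**Figure D2:**
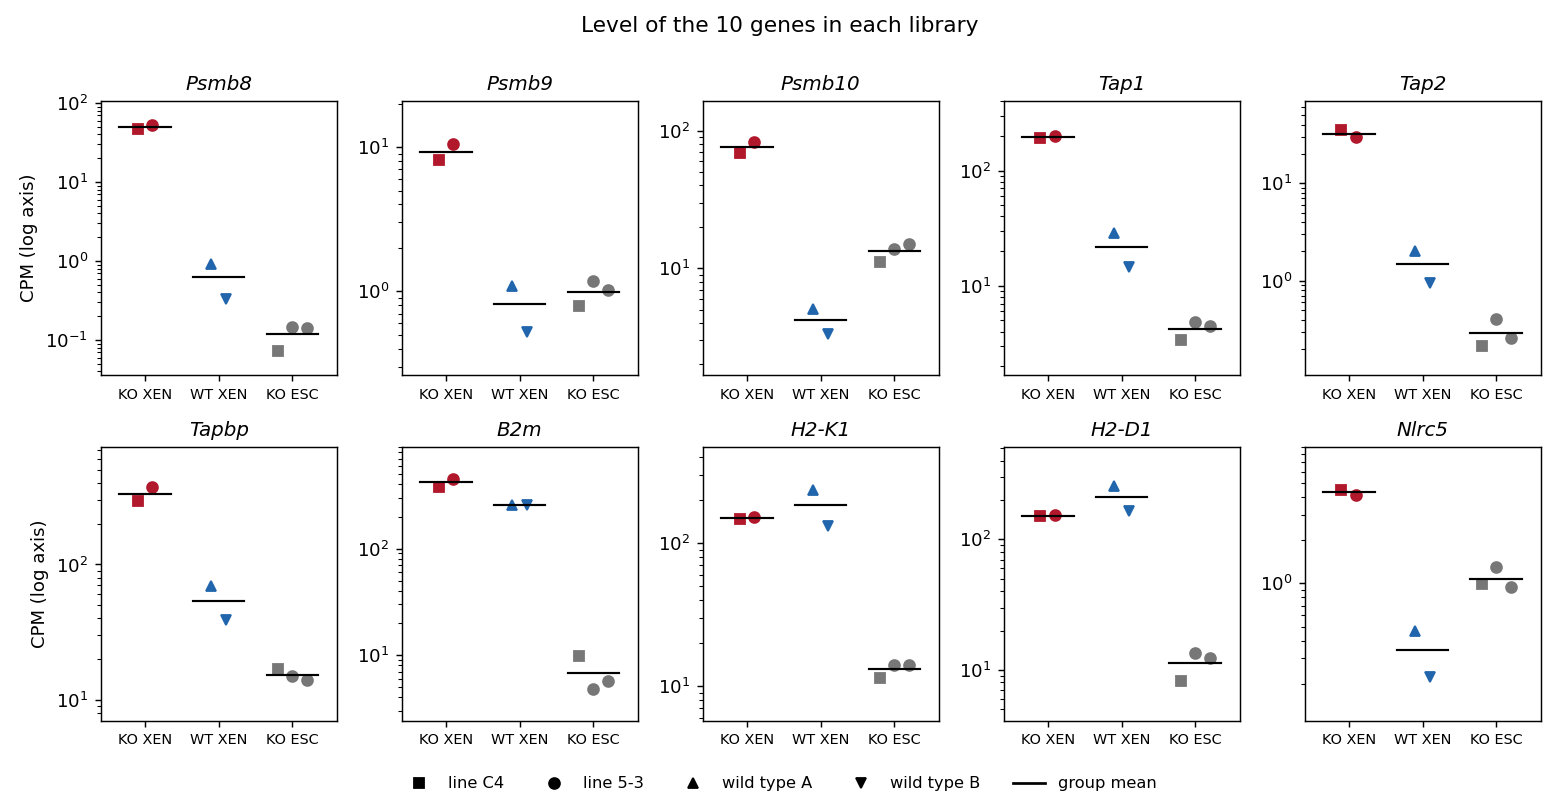
CPM (log axis) of the 10 genes in each library, by group, with bars at the group means and symbols for the lines. Psmb8, Psmb9, Psmb10, Tap1, Tap2, Tapbp and Nlrc5 are highest in KO XEN, with Psmb8 at 47.1 and 52.9 CPM there, whereas B2m, H2-K1 and H2-D1 are high in both XEN groups.

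Psmb8 (LMP7, chymotrypsin-like; ENSMUSG00000024338, chromosome 17, 34197721 to 34201454, mm10) stood at 47.1 and 52.9 CPM in KO XEN, against 0.904 and 0.332 in WT XEN and 0.0720, 0.144 and 0.140 in KO ESC. It was close to undetected in ES cells, where its raw counts were 3, 6 and 7, and the 3 groups did not overlap. Its log2 fold change over KO ESC was 8.67 ± 0.45 in KO XEN (adjusted p = 3.04e-06) and 2.34 ± 0.50 in WT XEN (adjusted p = 0.00383), and 6.33 ± 0.47 for KO XEN over WT XEN (adjusted p = 0.000155). Without WT XEN A, which held more than B, the value was 1.48 for WT XEN over KO ESC (adjusted p = 0.0346) and 7.15 for KO XEN over WT XEN (adjusted p = 0.000297).

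Psmb9 (LMP2, of the caspase-like site; ENSMUSG00000096727, chromosome 17, 34181987 to 34187764) stood at 8.13 and 10.4 CPM in KO XEN, against 1.10 and 0.525 in WT XEN and 0.792, 1.18 and 1.02 in KO ESC. Only the KO XEN libraries were apart, and those of WT XEN and KO ESC overlapped. Psmb9 was higher in KO XEN than in WT XEN (log2 fold change of 3.51 ± 0.46, adjusted p = 0.000806) and KO ESC (3.22 ± 0.39, adjusted p = 0.000158). WT XEN and KO ESC did not differ past the threshold (-0.30 ± 0.41, adjusted p = 0.546), and without WT XEN B the sign turned (0.14, adjusted p = 0.787).

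Psmb10 (MECL-1, trypsin-like; ENSMUSG00000031897, chromosome 8, 105935735 to 105938444) stood at 68.9 and 82.1 CPM in KO XEN, against 5.04 and 3.35 in WT XEN and 11.1, 13.9 and 15.0 in KO ESC. KO XEN was highest and WT XEN lowest, with no overlap. Psmb10 was higher in KO XEN than in WT XEN (4.17 ± 0.28, adjusted p = 0.000136) and KO ESC (2.50 ± 0.22, adjusted p = 3.31e-05), and lower in WT XEN than in KO ESC (-1.67 ± 0.24, adjusted p = 0.000615).

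Tap1 (ENSMUSG00000037321, chromosome 17, 34187553 to 34197225) stood at 192 and 201 CPM in KO XEN, against 28.6 and 14.6 in WT XEN and 3.36, 4.88 and 4.50 in KO ESC. The groups formed 3 steps without overlap, with KO XEN on top. The log2 fold change was 3.18 ± 0.33 for KO XEN over WT XEN (adjusted p = 0.000347), 5.53 ± 0.31 for KO XEN over KO ESC (adjusted p = 4.17e-06) and 2.34 ± 0.29 for WT XEN over KO ESC (adjusted p = 0.000243). Its head-to-head neighbour Psmb9 is given beside it as a ratio, which was not tested: Tap1 over Psmb9 CPM was 23.6 and 19.2 in KO XEN, against 26.1 and 27.7 in WT XEN and 4.24, 4.14 and 4.41 in KO ESC. In the annotation used here their exons overlap on opposite strands by 212 bases (5.79% of Psmb9 and 3.87% of Tap1), and the strand setting of the counting is not given in the sources used here.

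Tap2 (ENSMUSG00000024339, chromosome 17, 34203527 to 34216321) stood at 34.9 and 29.8 CPM in KO XEN, against 2.0 and 0.940 in WT XEN and 0.216, 0.408 and 0.260 in KO ESC, again in 3 steps. Its log2 fold change was 4.46 ± 0.43 for KO XEN over WT XEN (adjusted p = 0.000282), 6.77 ± 0.42 for KO XEN over KO ESC (adjusted p = 5.83e-06) and 2.31 ± 0.41 for WT XEN over KO ESC (adjusted p = 0.00151; 1.70 without WT XEN A, adjusted p = 0.0105). Tapbp (ENSMUSG00000024308, chromosome 17, 33915899 to 33929292) stood at 293 and 372 CPM in KO XEN, against 69.4 and 38.8 in WT XEN and 16.8, 15.0 and 14.03 in KO ESC. The same 3 steps were seen, with log2 fold changes of 2.62 ± 0.28 (adjusted p = 0.000387), 4.45 ± 0.26 (adjusted p = 4.82e-06) and 1.83 ± 0.24 (adjusted p = 0.000383) in the same order. An antisense gene, Gm19412, covers 24.9% of the Tapbp exons and had at most 154 counts in a library. Zbtb22, on the same strand as Tapbp, shares 149 exon bases with it (4.11% of the Tapbp exons). That gene had between 353 and 882 counts in a library.

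B2m (ENSMUSG00000060802, chromosome 2, 122147686 to 122153083) stood at 382 and 454 CPM in KO XEN, against 257 and 255 in WT XEN and 9.82, 4.85 and 5.68 in KO ESC. Both XEN groups lay far above the ES cells, and KO XEN lay above WT XEN without overlap. Over KO ESC the log2 fold change was 5.95 ± 0.31 in KO XEN (adjusted p = 3.1e-06) and 5.24 ± 0.30 in WT XEN (adjusted p = 8.55e-06). For KO XEN over WT XEN it was 0.71 ± 0.30 and missed the threshold (adjusted p = 0.0867). It passed when only these groups were fitted (0.67, adjusted p = 0.0317), without KO ESC C4 (0.63, adjusted p = 0.0112) and without both C4 libraries (0.83, adjusted p = 0.0137).

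H2-K1 (ENSMUSG00000061232, chromosome 17, 33996017 to 34000347) stood at 149 and 153 CPM in KO XEN, against 237 and 132 in WT XEN and 11.5, 14.1 and 14.1 in KO ESC. The KO XEN libraries lay between those of WT XEN, and all 4 lay above the ES cells. The log2 fold change over KO ESC was 3.51 ± 0.25 in KO XEN (adjusted p = 1.05e-05) and 3.80 ± 0.25 in WT XEN (adjusted p = 1.44e-05). KO XEN over WT XEN gave -0.29 ± 0.26 (adjusted p = 0.39), which turned to 0.11 without WT XEN A (adjusted p = 0.702) and to -0.66 without WT XEN B (adjusted p = 0.0371, lower in KO XEN). H2-D1 (ENSMUSG00000073411, chromosome 17, 35262730 to 35267499) stood at 151 and 153 CPM in KO XEN, against 258 and 164 in WT XEN and 8.16, 13.4 and 12.3 in KO ESC. It was higher than in KO ESC by 3.75 ± 0.26 in KO XEN (adjusted p = 1.06e-05) and 4.22 ± 0.27 in WT XEN (adjusted p = 1.28e-05), and KO XEN over WT XEN gave -0.47 ± 0.28 (adjusted p = 0.198). Of the 50-base stretches in their reference transcripts, 8.79% for H2-K1 and 14.3% for H2-D1 also occur in other genes, so that counts between close class I paralogs are uncertain.

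Nlrc5 (ENSMUSG00000074151, chromosome 8, 94434356 to 94527272) stood at 4.50 and 4.15 CPM in KO XEN, against 0.466 and 0.221 in WT XEN and 0.984, 1.30 and 0.941 in KO ESC. As for Psmb10, the ES cells lay between the XEN groups. Nlrc5 was higher in KO XEN than in WT XEN (3.64 ± 0.49, adjusted p = 0.000909) and KO ESC (2.01 ± 0.39, adjusted p = 0.0022). It was lower in WT XEN than in KO ESC (-1.63 ± 0.45, adjusted p = 0.0133), a call lost without WT XEN B (-1.19, adjusted p = 0.0797) and kept without WT XEN A (-2.23, adjusted p = 0.0142), and it had only 17 and 8 counts in the WT XEN libraries.

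**Figure D3:**
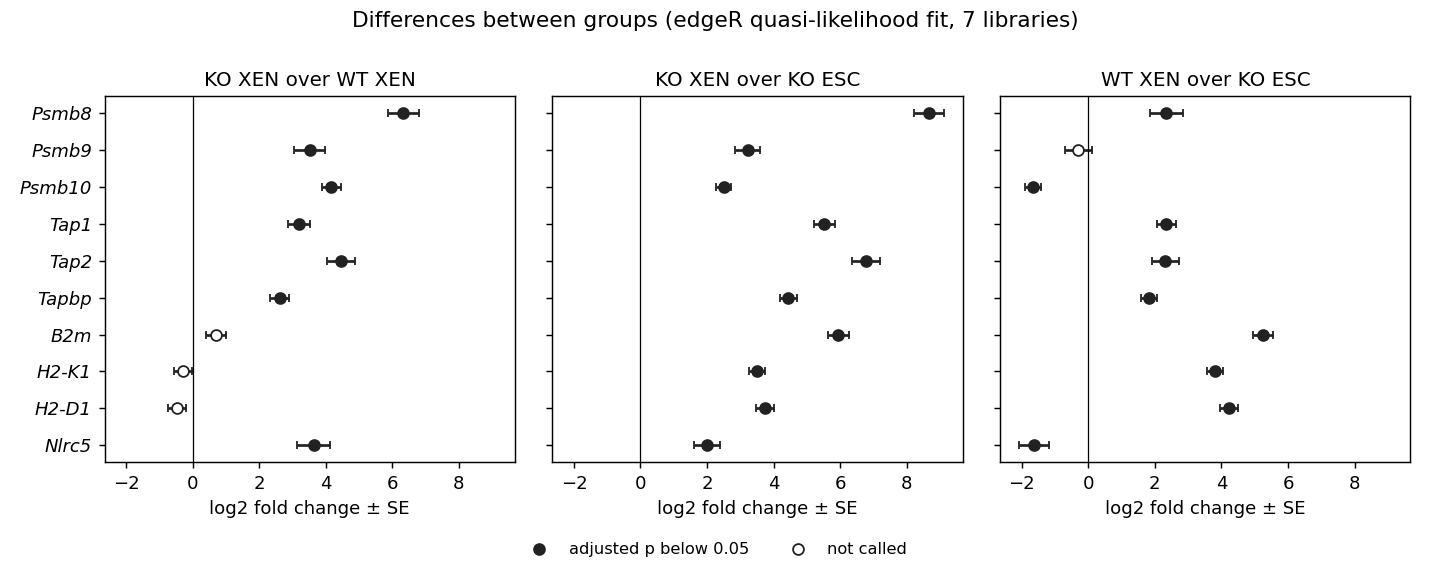
Log2 fold change ± SE of each gene in the 3 comparisons, with filled points for an adjusted p below 0.05. Between the XEN groups B2m lies at 0.71, H2-K1 at -0.29 and H2-D1 at -0.47, none of them filled, and the 3 lie between 3.51 and 5.95 for KO XEN over KO ESC, while Psmb10 and Nlrc5 lie below 0 for WT XEN over KO ESC.

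In KO XEN against KO ESC, the comparison before and after differentiation within the knockout, all 10 genes were higher, with a median of 4.10 beside -0.08 over all genes, of which 34.8% were called higher and 34.3% lower (69.0% in all). The libraries did not overlap for any of the 10, where 39.8% of all genes were apart upward and 41.2% downward. In WT XEN against KO ESC, 7 were called higher and 2 lower, and 1 missed the threshold, with a median of 2.32 beside -0.03, where 32.2% of all genes were called higher and 30.3% lower (62.5% in all). Libraries were apart for 9 of the 10, 7 upward and 2 downward, where 38.4% and 37.7% of all genes were. These comparisons share libraries with each other and with that of KO XEN and WT XEN. WT XEN A held more than WT XEN B for all 10 genes, by 1.01-fold (B2m) to 2.73-fold (Psmb8), while A was the higher library for 48.7% of all genes tested. The knockout lines were closer in XEN: the ratio of C4 to 5-3 ran from 0.780 (Psmb9) to 1.17 (Tap2). The lines also differed in Ago2 transcript, and a link of that to these levels was not tested. All 7 calls between KO XEN and WT XEN also held without both C4 libraries, in a fit where the lone KO XEN library is assumed to vary like the other groups.

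The change with differentiation was also compared between the lines. By edgeR, 0 of 10 genes passed the interaction of line and differentiation, 1 had an unadjusted p below 0.05, and DESeq2 called 0. Over all genes 0% were called, and 10.0% had an unadjusted p below 0.05. The gene was B2m, with a ratio of KO XEN to KO ESC CPM of 38.9 in C4 and 86.1 in 5-3 (log2 difference of C4 minus 5-3 -1.14 ± 0.25, edgeR adjusted p = 0.367). The fit had 2 residual degrees of freedom, and simulated differences between lines that were 8-fold were called for 87 of 200 genes.

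Put on a scale per length (TPM computed here from counts and the exon-union length of each gene), the order of levels changed between groups. In KO XEN, B2m was highest at 1559 ± 162 TPM (SD, n = 2), followed by Tapbp at 294 ± 44.2, H2-D1 at 189 ± 1.82, H2-K1 at 165 ± 0.354, Psmb10 at 142 ± 15.1 and Tap1 at 115 ± 1.70. Below these stood Psmb8 at 47.5 ± 3.06, Tap2 at 27.5 ± 3.53, Psmb9 at 8.13 ± 1.28 and Nlrc5 at 1.64 ± 0.122 TPM. In WT XEN, B2m at 1011 ± 11.4 TPM was followed by H2-D1 at 278 ± 89.2 and H2-K1 at 214 ± 87.4, and then by Tapbp at 50.8 ± 20.6. Then came Tap1 at 13.4 ± 6.23, Psmb10 at 8.37 ± 2.44, Tap2 at 1.32 ± 0.682, Psmb9 at 0.755 ± 0.380 and Psmb8 at 0.623 ± 0.411 TPM. The SDs of several neighbours overlap, but A was the higher library for every gene, and H2-D1 lay above H2-K1, Tap1 above Psmb10, Tap2 above Psmb9 and Psmb9 above Psmb8 in both A and B. In KO ESC, B2m at 24.4 ± 10.1 and Psmb10 at 24.01 ± 3.26 TPM (SD, n = 3) led, and H2-K1 at 13.8 ± 1.31, H2-D1 at 13.4 ± 3.03 and Tapbp at 12.9 ± 1.397 could not be ordered. Psmb8 was the lowest of the 10 there by exon-union length, at 0.107 ± 0.0350 TPM. By coding length Psmb8 at 0.196 ± 0.0632 and Tap2 at 0.192 ± 0.0622 TPM were level in KO ESC, Psmb10 at 116 ± 11.7 and Tap1 at 114 ± 1.06 were level in KO XEN, and Tap2 lay below Psmb9 in WT XEN, at 0.939 ± 0.489 against 1.66 ± 0.844. Heavy chain and transporter stood in other proportions in each group: the ratio of H2-K1 to Tap1 CPM was 0.776 and 0.762 in KO XEN, against 8.31 and 9.08 in WT XEN and 3.43, 2.89 and 3.14 in KO ESC. For H2-D1 to Tap1 it was 0.788 and 0.761 in KO XEN, against 9.02 and 11.2 in WT XEN and 2.43, 2.74 and 2.74 in KO ESC. These ratios were not tested.

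Set against the subunit it replaces, Psmb8 made up 25.0% and 27.7% of the Psmb8 and Psmb5 pair per exon-union length in KO XEN, against 0.911% and 0.462% in WT XEN and between 0.0823% and 0.141% in KO ESC. Psmb9 made up 2.22% and 2.98% of its pair with Psmb6 in KO XEN, against 0.451% and 0.258% in WT XEN and between 0.250% and 0.293% in KO ESC. Psmb10 made up 40.3% and 47.5% of its pair with Psmb7 in KO XEN, against 5.78% and 4.41% in WT XEN and between 8.30% and 9.42% in KO ESC. KO XEN lay above both other groups for each pair. The difference between KO XEN and WT XEN was 25.6 percentage points for Psmb8, 2.25 for Psmb9 and 38.8 for Psmb10. An exact two-sided permutation test gave p = 0.333 for each, the smallest that 2 libraries against 2 allow. The level of the share depends on the length used: by coding length the means in KO XEN were 56.2% for Psmb8, 5.37% for Psmb9 and 28.4% for Psmb10. Of the replaced subunits, Psmb5 (log2 fold change 0.72 ± 0.24, adjusted p = 0.0391) and Psmb6 (0.65 ± 0.20, adjusted p = 0.0281) were higher in KO XEN than in WT XEN, and Psmb7 gave 0.32 ± 0.20 (adjusted p = 0.218).

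**Figure D4:**
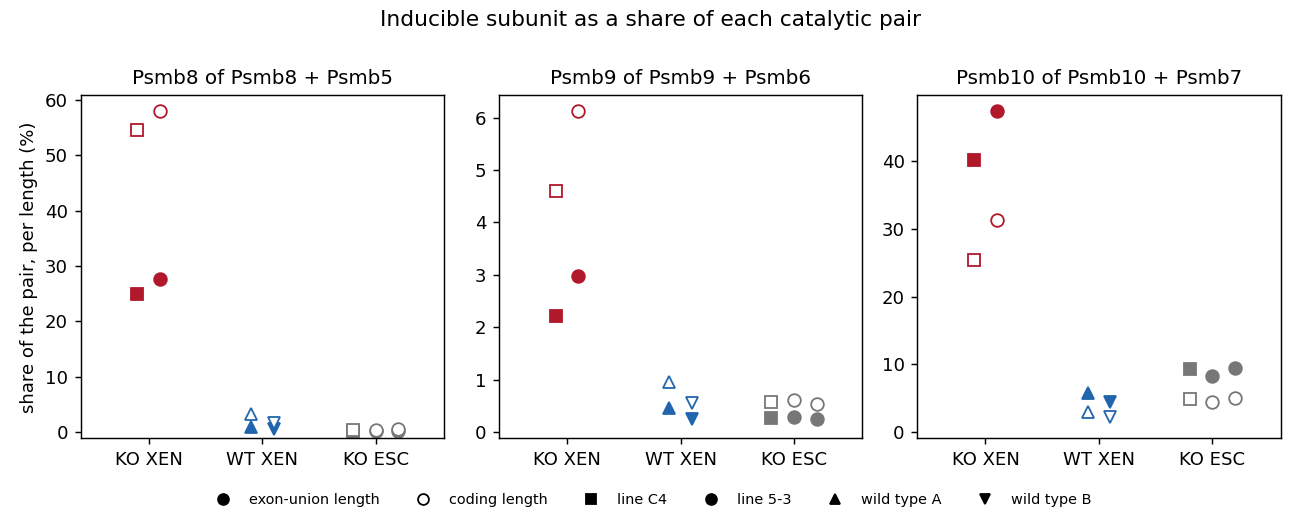
Share (%) of each inducible subunit in its catalytic pair per library, by exon-union length (filled) and coding length (open), with symbols for the lines. KO XEN lies above WT XEN and KO ESC in each pair by either length, at 25.0% and 27.7% for Psmb8 by exon-union length.

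Other genes of the pathway moved unevenly between the XEN groups. Over all genes, 22.3% were called higher and 23.9% lower there, which is the background for this and the following lists. Of 5 proteasome activator and maturation genes, 2 were called higher and 1 lower, and 2 missed the threshold. The PA28 activator subunits, which interferon induces, were those higher: Psme1 at 188 and 198 CPM in KO XEN against 61.5 and 43.8 in WT XEN (1.87 ± 0.19, adjusted p = 0.00033), and Psme2 at 71.3 and 72.6 against 16.9 and 15.9 (2.13 ± 0.23, adjusted p = 0.000361). The activator PA200, Psme4, was lower (-2.22 ± 0.28, adjusted p = 0.000723). Of 6 peptide trimming and class I folding genes, 2 were called higher and 3 lower, and 1 missed the threshold. The aminopeptidase Erap1 (1.28 ± 0.43, adjusted p = 0.0403) and the tapasin-like Tapbpl (2.87 ± 0.44, adjusted p = 0.00149) were higher. The general chaperones Calr (-0.79 ± 0.15, adjusted p = 0.00426) and Canx (-0.93 ± 0.18, adjusted p = 0.00448) and the disulfide isomerase Pdia3 (-0.98 ± 0.16, adjusted p = 0.0019), which also serve other proteins, were lower.

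Among 18 further class I and class I-like genes, 15 passed the filter, of which 7 were called higher and 3 lower, and 5 missed the threshold in KO XEN against WT XEN, with a median of 1.37. H2-T22 stood at 76.7 and 114 CPM in KO XEN, against 8.99 and 4.396 in WT XEN and between 0.792 and 1.22 in KO ESC (3.83 ± 0.39 for KO XEN over WT XEN, adjusted p = 0.000333). H2-Q4 (2.91 ± 0.26, adjusted p = 0.000234) and H2-M3, which presents formylated peptides (1.91 ± 0.25, adjusted p = 0.000755), were also higher. Lower were H2-Q2 (-2.21 ± 0.58, adjusted p = 0.016), H2-Q7 (-1.12 ± 0.36, adjusted p = 0.036) and H2-Q10, whose levels were 0 in both KO XEN libraries and 1.64 and 0.940 CPM in WT XEN. Taking 3 counts summed over a group as the floor, H2-Q10 was at least 20.0-fold lower in KO XEN, and H2-T24, named after its values were seen, had 0 counts in KO ESC and was at least 346-fold higher in KO XEN and at least 82.5-fold higher in WT XEN. Many of these genes are close paralogs, so their counts are uncertain.

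MHC class II genes, which present peptides from outside the cell, were counted too. Over 9 such genes the summed level was 21.3 and 27.0 CPM in KO XEN, against 12.2 and 8.32 in WT XEN and between 7.99 and 14.4 in KO ESC. Of the 7 tested, 4 were called higher and 1 lower, and 2 missed the threshold in KO XEN against WT XEN. The invariant chain Cd74 stood at 11.6 and 14.5 CPM in KO XEN, against 1.70 and 0.774 in WT XEN and between 3.65 and 11.7 in KO ESC (3.40 ± 0.62 for KO XEN over WT XEN, adjusted p = 0.00336). The class II coactivator Ciita, a relative of Nlrc5, stood at 0.436 and 1.26 CPM in KO XEN against 0 and 0.0276 in WT XEN, where WT XEN had 1 count in all (adjusted p = 0.00525). H2-DMa, of the peptide-exchange factor, was higher too (1.68 ± 0.37, adjusted p = 0.00713). The class II beta chain H2-Ab1 was lower (-3.22 ± 0.52, adjusted p = 0.0019).

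Genes that act upstream were measured as well. Of 10 interferon genes, only Ifnb1 passed the filter, at 0.799 and 2.22 CPM in KO XEN, against 0.329 and 0 in WT XEN and 0 in each KO ESC library. It did not pass between KO XEN and WT XEN (3.20 ± 1.27, adjusted p = 0.0837), but was called higher in KO XEN than in KO ESC, by at least 79.7-fold (adjusted p = 0.00471). Ifna4, which did not pass the filter and was not tested, had 3 and 20 counts in KO XEN, against 0 and 1 in WT XEN and 0 in each KO ESC library. Ifng, the type II interferon, had 0 counts in all 4 XEN libraries. Of 11 interferon receptor and signalling genes, 5 were called higher and 0 lower, and 6 missed the threshold in KO XEN against WT XEN. Of all genes, 22.3% were called higher there. Against KO ESC, 11 were higher in KO XEN and 10 in WT XEN, where 34.8% and 32.2% of all genes were called higher. Socs1, an inhibitor of the pathway that interferon induces (2.48 ± 0.37, adjusted p = 0.00128), and the receptor chain Ifnar1 (0.64 ± 0.20, adjusted p = 0.0297) were higher.

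Of 8 interferon regulatory factors, 4 were called higher and 2 lower, and 2 missed the threshold in KO XEN against WT XEN. Irf1, which is known to drive Psmb9 and Tap1 transcription, stood at 147 and 145 CPM in KO XEN, against 24.8 and 16.2 in WT XEN and 34.9, 23.8 and 22.5 in KO ESC (2.83 ± 0.29 for KO XEN over WT XEN, adjusted p = 0.000323). WT XEN and KO ESC did not differ past the threshold for Irf1 (-0.40 ± 0.25, adjusted p = 0.195). Irf7, which amplifies type I interferon, stood at 71.0 and 143 CPM in KO XEN, against 6.79 and 2.05 in WT XEN and 0.0240, 0 and 0.0200 in KO ESC (4.6 ± 0.60 for KO XEN over WT XEN, adjusted p = 0.00077). Irf2 was higher (1.86 ± 0.30, adjusted p = 0.00182), and Irf4 was lower (-5.30 ± 0.74, adjusted p = 0.00104). Of 9 factors that bind class I promoters, 2 were called higher and 2 lower, and 5 missed the threshold. These counts were close to the 22.3% called higher and 23.9% called lower over all genes. Rfx5, a subunit of the RFX complex, stood at 38.1 and 47.5 CPM in KO XEN, against 10.9 and 9.32 in WT XEN and 23.6, 15.7 and 18.0 in KO ESC. It was higher in KO XEN than in WT XEN (2.08 ± 0.26, adjusted p = 0.000613) and lower in WT XEN than in KO ESC (-0.91 ± 0.23, adjusted p = 0.00917), as were Nlrc5 and Psmb10. The other RFX subunit genes, named after their values were seen, stood higher in WT XEN than in KO ESC. Rfxap was at 13.6 and 14.9 CPM in KO XEN, against 8.60 and 9.32 in WT XEN and 2.93, 3.48 and 4.12 in KO ESC. Rfxank was at 12.9 and 16.8 CPM in KO XEN, against 15.2 and 18.2 in WT XEN and 7.87, 7.25 and 8.73 in KO ESC. The NF-kappaB subunit gene Nfkb1 was higher (1.00 ± 0.19, adjusted p = 0.00375), and Creb1 (-1.69 ± 0.33, adjusted p = 0.00454) and the NF-Y subunit gene Nfya (-0.61 ± 0.17, adjusted p = 0.0197) were lower in KO XEN.

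**Figure D5:**
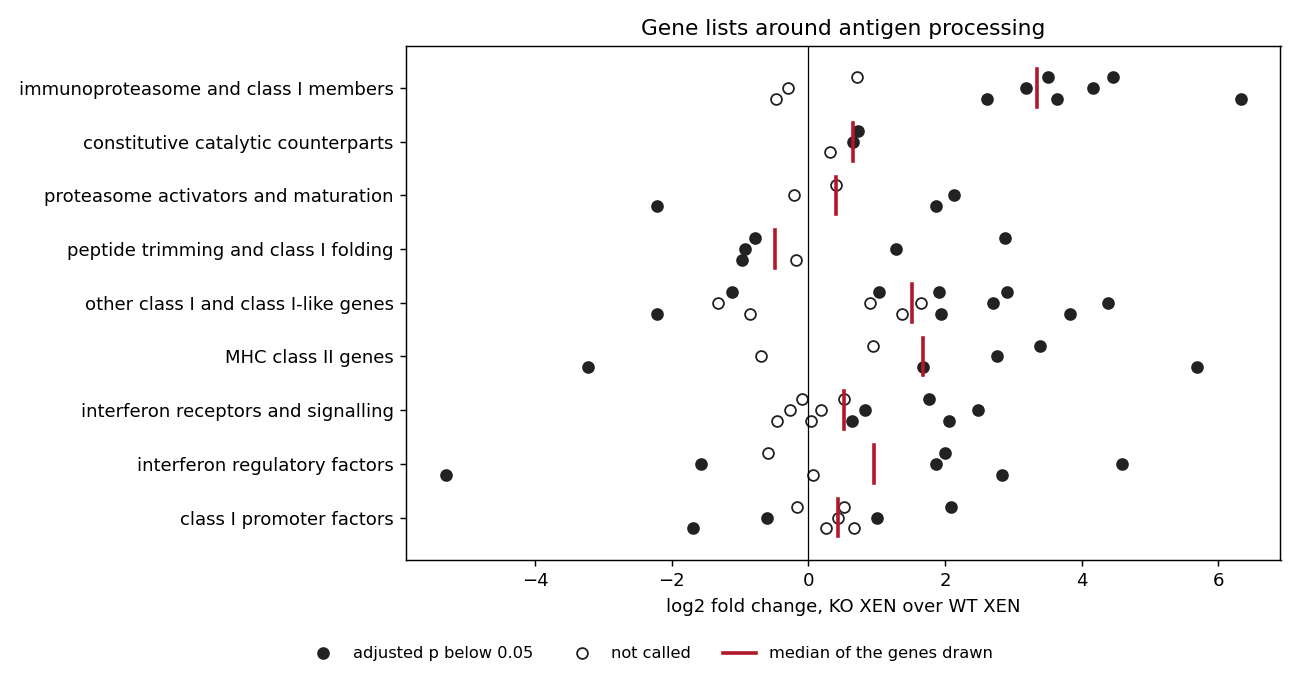
Log2 fold change of each tested gene in KO XEN over WT XEN by list, with filled points for an adjusted p below 0.05 and red bars at the median of the genes drawn. The 10 immunoproteasome and class I genes have a median of 3.35, and H2-Q10, at 0 counts in KO XEN, is not drawn.

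Across the 7 libraries the 10 genes fell into patterns that Pearson's r of log2 CPM describes. H2-K1 and H2-D1 had r = 0.997, Tap1 and Tapbp 0.994, Psmb8 and Tap2 0.993, and Psmb10 and Nlrc5 0.987, whereas H2-D1 and Nlrc5 had 0.013. With 3 groups behind 7 points, these values describe the group means more than independent libraries. The genes most like the mean profile of the 10, among 11499 candidates, were Map7d1, a microtubule-associated protein (r = 0.999), Gxylt2, a xylosyltransferase, Cnn2, an actin-binding calponin, Abtb2 and Got1l1 (r = 0.998 or above). The mean level of Map7d1 was 252 CPM in KO XEN, with 53.6 in WT XEN and 25.8 in KO ESC.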

How the data were processed

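The authors deposited raw read counts of Ensembl genes for 7 libraries. Per the submitters' processing notes, the tools were STAR 2.4.2a and featureCounts 1.4.5-p1 and the build mm10. Per the labels, libraries came from a TruSeq kit and a reverse-stranded protocol. Which strand was counted, which annotation was used and whether rows were filtered is not given in the sources used here. Names, positions and lengths were taken from GENCODE M21 (GRCm38), which matched 42462 of 43629 IDs.

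All 7 libraries entered 1 edgeR 4.0.16 quasi-likelihood fit (R 4.3.3) with 3 groups, TMM scaling and filterByExpr, which left 18426 genes. Benjamini-Hochberg adjusted p-values run over all of these, and genes below 0.05 were called. Nothing in the labels tells separate cultures from repeat libraries, so p-values measure the spread between these libraries. Alternatives were other scalings, no filter, only the groups compared, DESeq2 1.42.0, line as a block, each library left out, and both C4 libraries left out. The numbers pair libraries by cell line, per the labels, yet differences between C4 and 5-3 in ES cells correlated with those in XEN at r = 0.0634 over 18426 genes (log2 of CPM with a pseudocount of 0.5). The interaction model had 5 groups (lines apart).

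The 10 genes, the lists and the motifs were chosen with earlier results of these data known. Named are all 10, up to 4 genes per list by adjusted p in KO XEN against WT XEN, and called genes that go against their list; some genes that this rule names are not reported here. Likeness was Pearson's r of log2 CPM with a prior count of 2, among genes reaching a mean of 10 CPM in some group. Where a group had 0 counts, folds are bounds against 3 counts summed over it, worth 0.0648 CPM for KO XEN, 0.0413 for WT XEN and 0.0225 for KO ESC, and cover counting error only. The fit was tested on simulated counts: between KO XEN and WT XEN, 8 of 97 genes changed 2-fold and 58 of 99 changed 4-fold were called, with 3 false calls among 17825 genes. Far fewer genes were changed there than the 46.2% called in the data, which alters the adjusted p-values. These shares therefore do not give the recovery in the data. Promoter windows are from RefSeq (GRCm38.p6) and cover 8 of the 10 genes. Figures were drawn with matplotlib 3.10.9.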

Additional observations from a re-analysis of the deposited data

How the results depend on the processing

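For KO XEN against KO ESC, the 10 genes kept direction and call in all 150 gene and setting pairs tried. For KO XEN against WT XEN this held in 145 of 150, and for WT XEN against KO ESC in 148 of 150, and the exceptions concern B2m, H2-K1, Psmb9 and Nlrc5. The count of genes called higher between KO XEN and WT XEN, 7, was 7 or 8 when a library was left out. The count called lower was 0 to 1 (H2-K1 without WT XEN B), and for WT XEN against KO ESC it was 1 to 2 (Nlrc5 lost without WT XEN B). Over all genes, 2511 (without WT XEN B) to 4318 (without KO ESC C4) were called higher in KO XEN than in WT XEN, against 4115 with all libraries, and 2618 without KO XEN 5-3. The log2 fold change of H2-K1 between KO XEN and WT XEN ran from -0.66 to 0.11 over the libraries left out, and that of Psmb9 between WT XEN and KO ESC from -0.89 to 0.14. That of Psmb8 ran from 5.78 to 7.15 for KO XEN over WT XEN and from 1.48 to 2.89 for WT XEN over KO ESC. The causes were not tested.

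By coding length, Psmb8 made up 56.2% of its pair in KO XEN, against 2.42% in WT XEN and 0.403% in KO ESC, Psmb9 5.37%, 0.749% and 0.573%, and Psmb10 28.4%, 2.64% and 4.77%, in place of 26.3%, 0.687% and 0.112%, 2.6%, 0.354% and 0.271%, and 43.9%, 5.09% and 9.01% by exon-union length. The lengths enter the ratio directly.

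With the line as a replicate block, which pairs the knockout libraries, 7 of the 10 genes were higher and 0 lower in KO XEN against WT XEN, and it changed no call on the 10 genes in any comparison. Scaling by total counts moved the median log2 fold change of all genes to -0.15 for KO XEN over KO ESC and -0.12 for WT XEN over KO ESC. Depth limits the lowest levels: Psmb8 rests on 3 to 7 counts per library in KO ESC and Nlrc5 on 8 and 17 in WT XEN.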
